A study of Mus musculus with 4 samples.

Results

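Voltage-gated ion channel genes, together with the potassium channel families that share the Kcn name, were examined for MOV10 peaks. The members were the protein-coding genes of the RefSeq GRCm38.p6 annotation whose symbols begin with Kcn, Cacn or Scn and name a channel subunit. Of 138 genes with such symbols, 5 were left out, namely Scnm1, the 3 epithelial Scnn1 genes and the regulator gene Kcnrg, which leaves 133 of 21900 coding genes. A peak was counted in a gene when its midpoint lay within the annotated span, and 48 of the 12236 listed peaks met this, in 7 of the 133 genes.

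MOV10, an RNA helicase and a known partner of the Argonaute proteins of microRNA silencing, was immunoprecipitated from N2A cells, a mouse neuroblastoma line, and the crosslinked RNA was sequenced by eCLIP, in which ultraviolet light joins proteins to the RNA they touch. The 2 groups were MOV10 immunoprecipitates (2 libraries, anti-MOV10 antibody) and inputs (2 libraries), both from flash-frozen pellets of cells grown in DMEM with serum, and the labels name no mutation, knockdown or drug in either. The deposited values came as 1 list of immunoprecipitate over input peaks that combines the libraries, so each peak has 1 value and no spread between replicates, the sequencing depth is unknown and no test between samples could be made. The labels do not say whether the replicates came from separate cultures. Transcript abundance was likewise not measured here, so a gene without a peak may be weakly expressed, weakly bound or below the lowest listed enrichment, and these cannot be told apart.

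Each peak carries values that were taken as the authors' log2 fold enrichment of immunoprecipitate over input (below, log2 enrichment), between 3.001 and 6.93 over the whole list, and their −log10 p, between 3.01 and 400. Both readings rest on the range of the values and on the usual column order of eCLIP peak files. Of 19 neuronal or neuroblastoma marker genes, 5 (26.3%) held peaks (Map2, Mapt, Stmn2, Ret and Gata2), and 0 of 6 glial and 0 of 5 muscle markers did. Of all coding genes 8.53% held one, so the counts of 0 in such short lists are near that background and do not settle the cell type. A peak is not an expression level, and the sympathetic markers Th and Dbh held none.

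Voltage-gated channels open when the membrane potential changes. Sodium channels carry the upstroke of the action potential, potassium channels repolarise the cell or set its resting potential, and calcium channels couple activity to secretion and gene expression. Each channel is built from a large pore-forming subunit, or from several smaller ones, and from auxiliary subunits that set its gating and its delivery to the membrane. The Kcn name also covers leak and inward rectifier potassium channels, which need no voltage sensor.

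Peaks were found in few channel genes. By the span rule 7 of 133 channel genes (5.26%) held a peak, against 8.53% of all coding genes. In peaks that lay in no second gene, the count was 6 of 133 (4.51%), against 7.70%. The channel genes are long, with a median span of 46.7 kb against 17.1 kb for all coding genes, and long genes more often held a peak. Among genes of at least 15 kb, 7 of 101 channel genes (6.93%) had one, against 13.2% of coding genes of that length. Each of these shares is below that of coding genes, but each rests on at most 7 genes, and no difference was tested.

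By ion, 5 of 93 potassium channel genes and 2 of 26 calcium channel genes held peaks, 38 and 10 peaks in all, and 0 of 14 sodium channel genes. Of the pore-forming voltage-gated potassium channel genes 2 of 40 had a peak. Auxiliary subunits of these channels had 1 of 12, Kcnab2. The group of calcium- or sodium-activated potassium channel subunits also had 1 of 12, Kcnmb3. Of the tandem-pore-domain leak channel genes 1 of 14 had peaks, Kcnk3, and of the inward rectifiers 0 of 15. Among calcium channel genes the pore-forming alpha1 group had 1 of 10, Cacna1c, and the gamma group 1 of 8, Cacng7. The alpha2delta and beta groups had 0 of 4 each. Of all coding genes 8.53% held a peak. Counts of 0 in groups this small, the 14 sodium channel genes and 15 inward rectifiers included, are near that background. No family had more than 2 genes with a peak, so the genes with peaks were spread over families and not gathered in one.

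**Figure D1:**
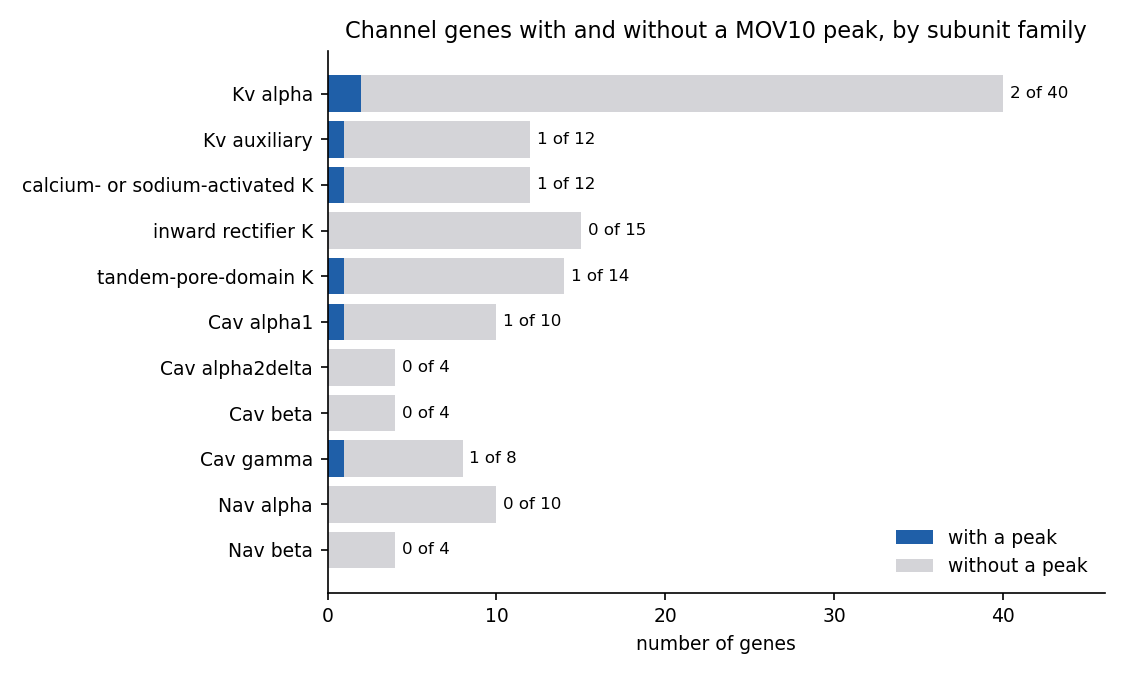
Number of channel genes with a MOV10 peak midpoint in their span (blue) and without one (grey), by subunit family, with the count beside each bar. Peaks occur in 7 genes of 6 families, and the inward rectifier, alpha2delta, beta and both sodium channel families have 0.

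The peaks were concentrated in a few genes. Kcnk3 held 21 of the 48 (43.8%), and Cacng7 and Kcnab2 held 8 each. Cacna1c held 2 and Kcnmb3 1. Log2 enrichment ran from 3.04 to 4.73 over the 48 peaks, an 8.21-fold to 26.5-fold enrichment, with a median of 3.56. The −log10 p ran from 3.01 to 27.2, with a median of 7.31. Of the 10 peaks with a log2 enrichment of at least 4, Kcnk3 held 4 and Cacng7 and Kcnab2 held 2 each. Significance was less evenly shared, since the 16 peaks with a −log10 p of at least 10 lay in Kcnk3 (12) and Cacng7 (4).

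**Figure D2:**
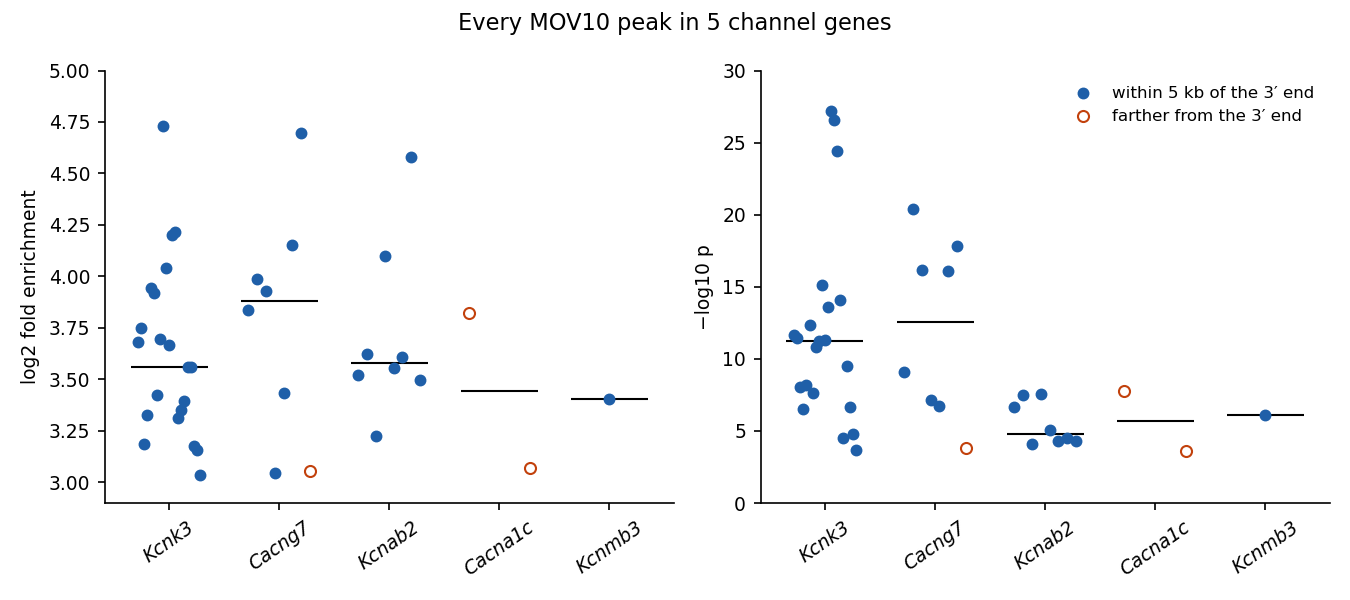
Log2 fold enrichment (left) and −log10 p (right) of every peak in 5 channel genes, by gene, with points ordered within each gene by distance from the 3′ end and black lines at the median. Filled points lie within 5 kb of the annotated 3′ end and open points farther away. The strongest peaks of Kcnk3, Cacng7 and Kcnab2 are alike in enrichment (4.73, 4.70 and 4.58), whereas the highest −log10 p is 27.2 in Kcnk3, 20.4 in Cacng7 and 7.59 in Kcnab2.

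Kcnk3, which encodes the acid-sensitive leak potassium channel TASK-1, had the most peaks and the strongest one. The gene lies on chromosome 5 (30588170 to 30625270). It was absent from the strand table, so its direction was taken from its peaks, all of which were on the plus strand. The 21 peaks formed 9 runs between 187.5 and 1933 nt from the 3′ end. Here and below, a run is a set of touching peaks or a single peak that touched no other. They covered 1604 of the 1837 nt between the first and the last (87.3%), so this stretch was almost filled.

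The strongest Kcnk3 peak, at 30624144 to 30624250 and 1073 nt from the end, had a log2 enrichment of 4.73 and a −log10 p of 11.2. The highest −log10 p, 27.2, was reached at another position, a 29-nt peak at 30623875 to 30623903, with a log2 enrichment of 4.21. Enrichment was highest in the middle of the stretch. The 7 peaks at 1000 to 1500 nt from the end had log2 enrichments of 3.31 to 4.73 (median 4.04). The 8 nearer peaks had 3.19 to 3.94 (median 3.69) and the 6 farther ones 3.04 to 3.56 (median 3.29). The bounds of these zones were set after the values were seen, and peaks of a gene share transcripts and are not independent.

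Cacng7 encodes the gamma-7 protein, a relative of stargazin named as a calcium channel subunit and also known as an AMPA receptor regulator. It lies on the plus strand of chromosome 7 (3332027 to 3368221) and was the only channel gene with a peak near its 5′ end. The peak at 3332981 to 3333031 had its midpoint 979 nt from the start of the span, with a log2 enrichment of 3.06 and a −log10 p of 3.85, the lowest −log10 p of the 8 peaks. RefSeq's promoter table for GRCm38.p6 places a transcription start of the gene at 3332825, and the peak began 156 nt downstream of it. The 300-base window around that start (chr7:3332575-3332874, plus strand) is shown because it is the only promoter that lay beside a channel peak. Capitals mark the first 50 transcribed bases, and the peak began 106 bases after the last letter.
Cacng7 promoter: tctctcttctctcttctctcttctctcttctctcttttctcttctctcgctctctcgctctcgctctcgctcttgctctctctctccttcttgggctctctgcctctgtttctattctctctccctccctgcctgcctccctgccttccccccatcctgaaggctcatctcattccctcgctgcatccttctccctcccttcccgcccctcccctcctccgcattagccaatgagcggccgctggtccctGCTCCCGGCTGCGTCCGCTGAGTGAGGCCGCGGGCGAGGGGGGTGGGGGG
The window held 62.0% G and C, against a median of 52.7% over 32851 such windows. None of the 48 peaks lay in any of the 8 promoter windows listed for 4 of the 7 genes. The sequences under the peaks were not used here.

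The other 7 peaks of Cacng7 sat 325 to 986 nt from the 3′ end, in 3 runs that covered 59.0% of 715 nt. The run farthest from the end held the strongest peak, at 3367214 to 3367256, with a log2 enrichment of 4.70 and a −log10 p of 17.8. The run nearest the end joined 3 peaks with log2 enrichments of 3.84, 3.99 and 3.93, the second of which had the highest −log10 p of the gene, 20.4. Between them lay a short run of 2 weaker peaks, at 3.05 and 3.44. The neighbouring genes Cacng8 and Cacng6, which follow Cacng7 on chromosome 7 and encode related gamma subunits, had 0 peaks.

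Kcnab2 encodes a cytoplasmic beta subunit that binds voltage-gated potassium channels and aids their transport to the axon. It lies on the minus strand of chromosome 4 (152390744 to 152477549). Its 8 peaks were all on that strand, between 76.5 and 1747 nt from the 3′ end. They were more scattered than those of Kcnk3, in 6 runs that covered 38.8% of 1752 nt. The strongest, at 152392391 to 152392459 and 1681 nt from the end, had a log2 enrichment of 4.58 with a −log10 p of only 4.49. A second, at 152391123 to 152391257, had a log2 enrichment of 4.10 and the highest −log10 p of the gene, 7.59. The other 6 had log2 enrichments of 3.23 to 3.62, so the strongest peak stood well above the rest in enrichment and not in −log10 p.

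Beyond the 3′ end of Kcnab2, 6 more peaks lay 774.5 to 3260.5 nt outside its span. They were on the opposite strand, within the span of the plus-strand chromatin remodeller gene Chd5, and were not counted for Kcnab2. Peaks also lay within 5 kb outside the spans of Kcnab1 (6, in Ssr3), Kcnk15 (3, in Rims4), Scn3b (6, in Gramd1b) and Kcnmb3 (1, in Pik3ca). All 22 such peaks fell in the span of another gene, so no peak outside annotated genes lay within 5 kb of a channel gene. The peaks beside Kcnab1, Kcnk15 and Kcnmb3 were likewise on the opposite strand, whereas the strand of Scn3b was not listed.

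**Figure D3:**
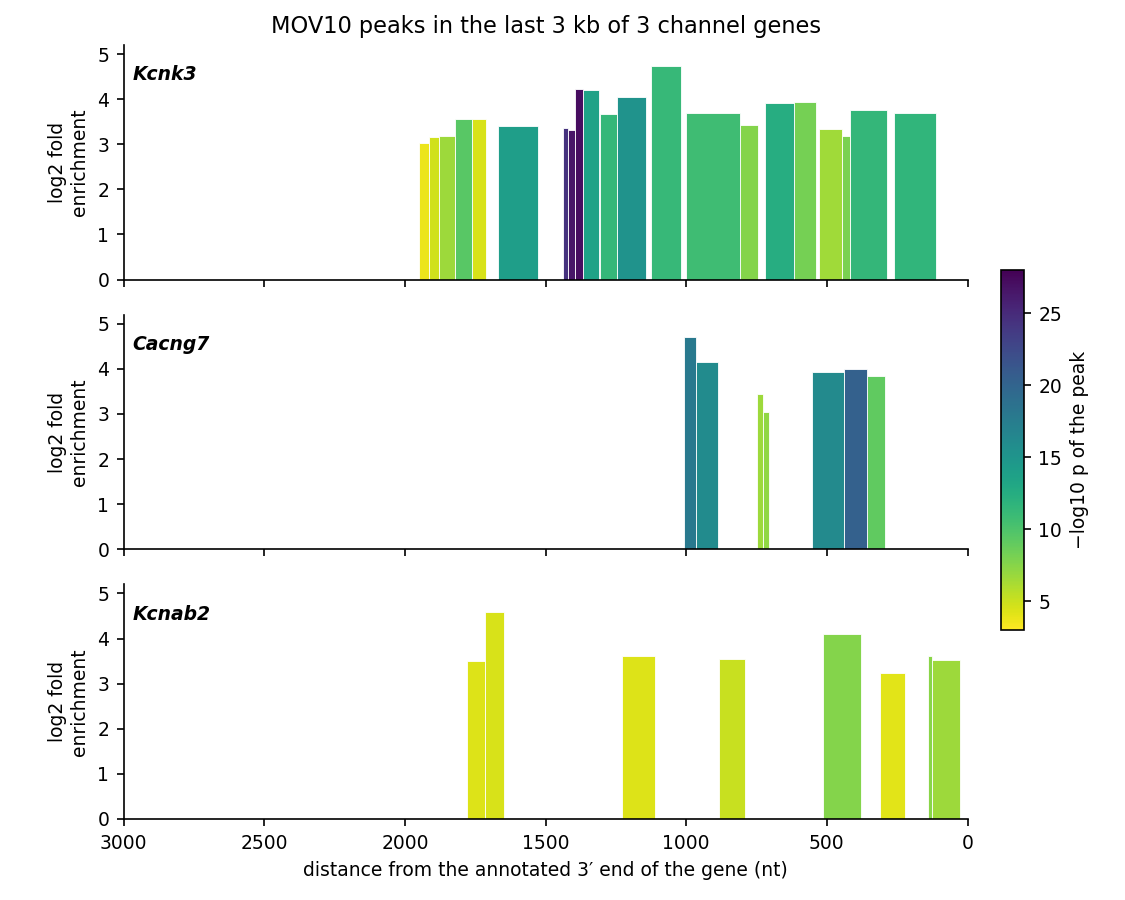
Peaks in the last 3 kb of Kcnk3, Cacng7 and Kcnab2, drawn to scale by distance from the annotated 3′ end (0 at the right), with log2 enrichment as height and −log10 p as colour. Kcnk3 peaks fill 87.3% of their stretch, those of Cacng7 near the end cover 59.0%, and those of Kcnab2 stand apart and cover 38.8%.

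Cacna1c had its peaks a little farther inside the gene. Cacna1c, which encodes the pore of the L-type calcium channel of neurons, heart and smooth muscle, spans 610 kb on the minus strand of chromosome 6 (118587240 to 119197384). Its peak at 118592788 to 118593016 had a log2 enrichment of 3.82 and a −log10 p of 7.78, and its second, at 118593148 to 118593275, had 3.07 and 3.60 on those scales. These lay 5662 and 5971.5 nt from the 3′ end, next to each other in a very long gene. Neither annotation of exons nor of untranslated regions was used here, so whether the positions of any channel peak are exonic was not determined.

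Kcnmb3, which encodes a beta subunit of the large-conductance calcium-activated potassium channel, met the span rule through a peak on the opposite strand. The gene lies on the minus strand of chromosome 3 (32465146 to 32502896), and the peak, at 32465263 to 32465411, was on the plus strand. There the span overlaps that of Pik3ca, a plus-strand gene that encodes the catalytic subunit of a lipid kinase (32397065 to 32466112). The peak had a log2 enrichment of 3.41 and a −log10 p of 6.09. On the gene's own strand 6 channel genes with 47 peaks remained, and Kcnmb3 had 0. In the list as a whole, 2.62% of 9640 pairs of a peak and a coding gene with a listed strand were on opposite strands, and 0.148% of the 8775 pairs in no second gene.

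Position near the 3′ end was common to most channel peaks. Of the 48 peaks, 44 (91.7%) lay within 5 kb of the annotated 3′ end and 43 within 2 kb. The 4 others, among them the 5′ peak of Cacng7 and both peaks of Cacna1c, had log2 enrichments of 3.06 to 3.82. In peaks that lay in no second gene, 43 of 47 channel peaks (91.5%) were within 5 kb of the end, against 87.4% of 11141 peaks in other coding genes. Within 2 kb the shares were 89.4% and 61.2%, and the median distances 1073 and 1516 nt. Of the 47 channel peaks, 21 lay in Kcnk3 alone. Without that gene, 22 of 26 channel peaks (84.6%) were within 5 kb of the end, which is below the share in other genes, so the direction at 5 kb rested on Kcnk3. Within 2 kb the share without it was 80.8%, still above that of other genes. Peaks of a gene are not independent, and these differences were not tested.

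The channel genes with peaks lay within the range of other genes with peaks. The strongest log2 enrichment per gene had a median of 4.40 in the 6 channel genes with peaks in no second gene (range 3.10 to 4.73), against 3.85 in 1680 other coding genes (interquartile range 3.43 to 4.39, highest 6.93). The number of peaks per gene had medians of 7.5 and 3. Over single peaks the order was the other way, with a median log2 enrichment of 3.56 in channel genes and 3.71 in the others, and a median −log10 p of 7.49 against 10.3. The median channel gene with peaks thus held more of them than the median other gene, and the median channel peak had a lower −log10 p than the median other peak. Without Kcnk3, which held 21 of these 47 channel peaks, the medians over single channel peaks were 3.54 and 5.35. Peaks of a gene are not independent, and none of these differences was tested. Kcnk3 was exceeded in number of peaks by 96 coding genes and in its strongest peak by 255. Cacng7 was exceeded in its strongest peak by 273 and Cacna1c by 876. With peaks of a log2 enrichment of at least 4 alone, 4 of 133 channel genes (3.01%) had one, against 3.59% of coding genes. With a −log10 p of at least 5, these were 6 (4.51%) and 6.69%.

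**Figure D4:**
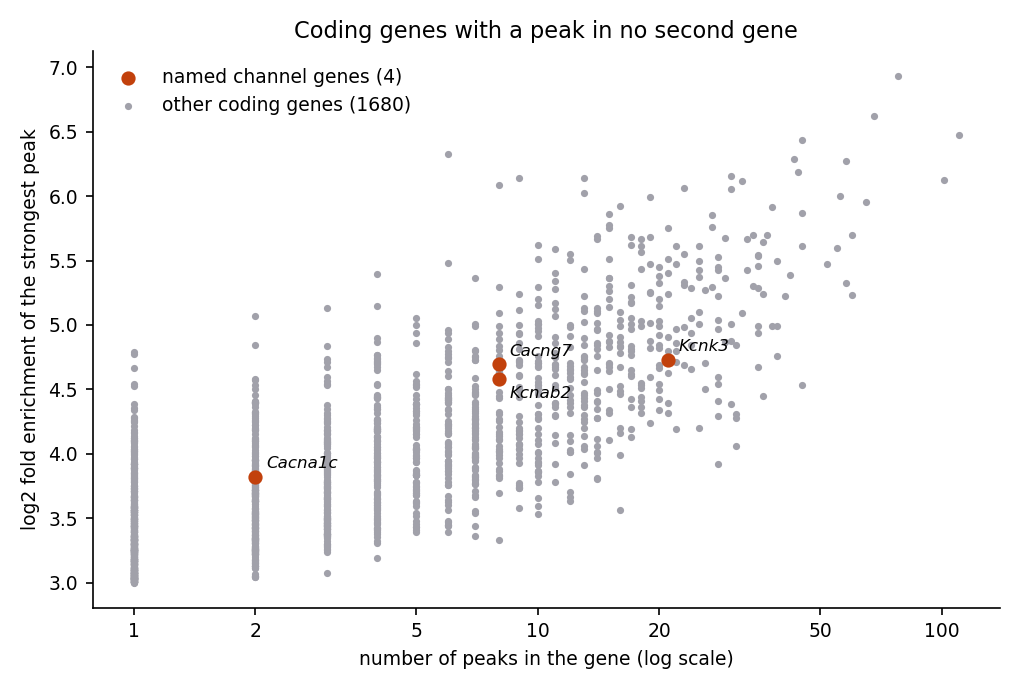
Log2 fold enrichment of the strongest peak against the number of peaks (log scale) for 4 of the 6 channel genes (orange) and the 1680 other coding genes (grey) with peaks in no second gene. The 4 genes lie inside the cloud of the other genes, where Kcnk3 has 21 peaks and a maximum of 4.73 and Cacna1c has 2 peaks and a maximum of 3.82.

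The other 126 channel genes held no peak, close relatives of the genes described above among them. Kcnk9, the other common acid-sensitive leak channel, had 0. Kcnab1 and Kcnab3 had 0 beside Kcnab2, and Cacng5 had 0 beside Cacng7. Cacna1d, the other L-type pore gene of neurons, also had 0. The neighbouring sodium channel genes Scn1a, Scn2a, Scn3a, Scn7a and Scn9a on chromosome 2, with spans of 110 to 170 kb, had 0 in all.

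Partner proteins of the channels were represented by a few transcripts. Of 66 genes on a list of channel partners and of other channels of the same superfamily, 8 held peaks (12.1%), against 8.53% of coding genes. The list was not matched for gene length, and 13.2% of coding genes of at least 15 kb held a peak. With 8 genes the share is near background, and the difference was not tested. The strongest were the junctophilin genes, whose products tether the endoplasmic reticulum to the plasma membrane. Jph4 reached a log2 enrichment of 5.02 on chromosome 14 (55107909 to 55107975, −log10 p 15.4), with 19 peaks, all within 1332.5 nt of the 3′ end. Jph3 reached a log2 enrichment of 5.01 on chromosome 8 (121790559 to 121790624, −log10 p 6.81), with 7 peaks. Calm3, 1 of the calmodulin genes, held 21 peaks with the strongest at a log2 enrichment of 4.40 on chromosome 7 (16916303 to 16916315, −log10 p 36.8), all within 1127 nt of the end. Each of these genes had a peak above, or a number of peaks equal to, those of Kcnk3.

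Adam22, a receptor of the secreted protein LGI1 at the synapse, had 1 peak with a log2 enrichment of 3.84 (chromosome 5, 8074542 to 8074673, −log10 p 4.34). Dlg4, the gene of the scaffold PSD-95, had 7 peaks with log2 enrichments up to 3.66 (chromosome 11, 70044907 to 70044911, −log10 p 6.09). Of the other superfamily channels, Tpcn1, an endolysosomal cation channel gene, had 1 peak with a log2 enrichment of 3.17, and Unc80, a subunit of the sodium leak channel complex, 1 with 3.11. Nalcn, the pore of that complex, had 0. Calmodulin genes encode the same protein, so reads of their coding parts may be shared between copies.

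Other families of membrane transport genes were set beside the channel genes. Of 68 ligand-gated receptor channel genes, 1 (1.47%) held peaks. Of 375 solute carrier genes, 36 (9.60%) held peaks, and their median strongest log2 enrichment was 4.08 for peaks in no second gene. Over genes of all lengths, these shares stand beside 5.26% for the channel genes and 8.53% for coding genes. Of genes of at least 15 kb, 31 of 281 solute carrier genes and 1 of 55 ligand-gated genes held peaks. Both shares are below the 13.2% of coding genes of that length, as is the 6.93% of channel genes. The solute carrier share was thus above that of coding genes only when length was not matched. The differences between families were not tested.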

How the data were processed

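The values analysed were those of 1 peak list, which combines 2 MOV10 immunoprecipitate and 2 input libraries after an irreproducible discovery rate (IDR) step, per its name. The −log10 p and the log2 fold enrichment of each peak were deposited by the authors and served here to describe, order and select peaks. Per the submitters' processing notes, the genome builds were mm10 and GRCm38.p6. For the aligner, the peak caller and thresholds, nothing is given in the sources used here. Start positions were converted to count from 1. Gene spans came from RefSeq GRCm38.p6, and the strand of 98 of the 133 genes from RefSeq's promoter table for that build. For those of the others that held peaks, it was taken from the peaks. Assignment of peaks was tested on simulated peaks. Python 3.11.15, pandas 2.3.3 and SciPy 1.17.1 were used. No test was run, since each peak has 1 value over all libraries.

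The members, the partner list and the comparison families were chosen with earlier results of these data known. Channel genes with a peak and partners with one are named, with positions for the 5 strongest partners. Some genes enter the counts but are not reported here by name. The alternatives were a minimum log2 fold enrichment of 4, a minimum −log10 p of 5, peaks in exactly 1 gene, merged peaks, overlap by 1 base, spans lengthened by 5 kb and other windows. The strand filter, the count with Kcnrg and that without Kcnk3 were added after seeing the data.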

Additional observations from a re-analysis of the deposited data

How the results depend on the processing

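Of 45 values computed under alternatives, 29 stayed near the reported ones and 16 moved, by over 1.5 times for counts, by over 0.1 for the median log2 fold enrichment or outside the exact 95% binomial interval for the share (80.0 to 97.7%, which covers counting error only). That interval takes peaks as independent, although 21 of the 48 lie in Kcnk3. It is therefore likely too narrow and served only as a yardstick for the alternatives. Reported were 7 channel genes, 48 peaks, and medians of 4.22 for the strongest log2 fold enrichment and 7 peaks per gene. Also reported were a share of 91.7% of peaks in the last 5 kb and 8 genes of the list of partners and other channels. With peaks of at least 4 in log2 fold enrichment these became 4 genes, 10 peaks, 4.64, 2, 100% and 3, by construction, since weaker peaks were removed. With a −log10 p of at least 5 the median number of peaks was 4 and 5 genes of that list were left. In peaks in exactly 1 gene, and on the gene's strand alone, the median strongest value was 4.40, because Kcnmb3 dropped out. Merging touching peaks left 29 peaks and a median of 4 per gene. A window of 10 kb held 97.9% of peaks. Without Kcnk3, 27 peaks remained, with medians of 4.02 and 4.5, and 85.2% of them were in the last 5 kb. No paired analysis was possible because each peak has 1 value over all libraries, and for the same reason no library could be left out. Read depth behind the peaks is unknown, and peaks below a log2 fold enrichment of 3 are not in the list.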
